A study of Homo sapiens with 6 samples.

Results

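The genes described here encode chaperones, folding enzymes and stress response proteins of the endoplasmic reticulum (ER): HSPA5, HSP90B1, SDF2L1, CALR, CANX, PDIA3, PDIA4, PDIA6, HERPUD1 and XBP1. They were taken by symbol from the table of the series, 10 of its 26364 genes, and all 10 passed the filter on low values, which left 13297 genes to test. MV4-11, an established human cell line from acute myeloid leukaemia, carries an internal tandem duplication in the receptor kinase gene FLT3. RNA was sequenced from 3 libraries of MV4-11 cells given 22d, known as an inhibitor of the deacetylase HDAC8, at 10 nM, and from 3 libraries of the same line given the vehicle DMSO, all after 18 hours in culture. The comparison asks which transcripts differed between cells with 22d and cells with DMSO. It rests on a single line, and the labels do not state whether the libraries are separate cultures; p-values here reflect the spread among the libraries alone, and that spread may be technical.

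Proteins bound for secretion, the cell surface and lysosomes fold in the ER. There HSPA5 (BiP) and HSP90B1 (GRP94) bind unfolded chains, calnexin and calreticulin hold glycoproteins, and protein disulfide isomerases form and reshuffle disulfide bonds. When unfolded proteins build up, the membrane sensors ATF6, IRE1 (gene ERN1) and PERK (gene EIF2AK3) start the unfolded protein response, in which ATF6 and spliced XBP1 raise the transcription of these same chaperones through ER stress elements in their promoters. Myeloid cells that make granule proteins keep a large secretory pathway. The gene counts used here sum all XBP1 transcripts and do not separate the spliced from the unspliced form.

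The promoters are shown first because such elements are the sequence that these genes are known to share. RefSeq promoter windows (build GRCh38.p14), each from 250 bases before to 50 bases after a transcript start, were on file for 9 of the 10 genes. Exact matches were searched on both strands. The ER stress element ERSE is CCAAT, then 9 bases of any kind, then CCACG. ERSE-II is ATTGG, then 1 base of any kind, then CCACG. The CCAAT box alone and the core of the unfolded protein response element (UPRE), TGACGTGG, were searched as well. ERSE was found in 6 of the genes (HSPA5, HSP90B1, PDIA6, CALR, CANX and XBP1) and ERSE-II in 2 (SDF2L1 and HERPUD1), while neither spelling occurred in the windows of PDIA4. Of all 35116 windows of this length, 0.0769% held ERSE and 0.0541% held ERSE-II. Counted by gene, as for the 10 genes, 0.175% of the 9708 tested genes with a window had ERSE and 0.134% had ERSE-II. ERSE and ERSE-II each contain a CCAAT box or its reverse complement, and CCAAT alone occurred in 34.6% of windows. The UPRE core was found in no window of the 9 genes, beside 0.729% of all windows. The matches of CALR and SDF2L1 and the other match of HSP90B1 lie on the reverse strand and read as the reverse complement. Exact ERSE or ERSE-II matches are in capitals in the sequences that follow, which end before the first annotated transcript start of the gene and read 5′ to 3′ along its strand.
HSPA5, chr9:125241344-125241593, minus strand: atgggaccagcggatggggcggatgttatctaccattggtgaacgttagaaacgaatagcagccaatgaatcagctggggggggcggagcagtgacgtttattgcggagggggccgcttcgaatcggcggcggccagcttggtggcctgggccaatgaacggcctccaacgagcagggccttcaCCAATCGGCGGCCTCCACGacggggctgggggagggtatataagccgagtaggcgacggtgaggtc
CALR, chr19:12938359-12938577, plus strand: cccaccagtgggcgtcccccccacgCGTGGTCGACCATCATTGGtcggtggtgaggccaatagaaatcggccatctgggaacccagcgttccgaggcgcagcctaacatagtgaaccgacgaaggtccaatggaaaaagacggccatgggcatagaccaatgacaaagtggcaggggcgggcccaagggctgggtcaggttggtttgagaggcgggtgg
SDF2L1, chr22:21642052-21642260, plus strand: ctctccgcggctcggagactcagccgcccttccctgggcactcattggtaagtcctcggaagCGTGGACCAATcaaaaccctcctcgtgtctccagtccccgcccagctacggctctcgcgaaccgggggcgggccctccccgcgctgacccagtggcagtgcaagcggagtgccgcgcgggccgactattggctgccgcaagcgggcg
HERPUD1, chr16:56931892-56932047, plus strand: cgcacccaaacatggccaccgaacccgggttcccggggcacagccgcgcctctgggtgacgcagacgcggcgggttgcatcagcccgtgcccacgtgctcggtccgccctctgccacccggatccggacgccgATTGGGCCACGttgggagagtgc

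In the other genes the element is shown with 5 bases on each side, since annotated transcripts of HSP90B1, CANX and PDIA6 begin further upstream.
HSP90B1, first match, chr12:103930211-103930239, plus strand: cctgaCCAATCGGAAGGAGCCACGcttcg
HSP90B1, other match, chr12:103930316-103930344, plus strand: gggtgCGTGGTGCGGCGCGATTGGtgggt
PDIA6, chr2:10812848-10812876, minus strand: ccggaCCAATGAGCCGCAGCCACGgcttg
XBP1, chr22:28800598-28800626, minus strand: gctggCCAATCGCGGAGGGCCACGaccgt
CANX, chr5:179698773-179698801, plus strand: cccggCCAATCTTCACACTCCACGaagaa

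With 22d, 7 of the 10 genes fell and 0 rose, called by limma where the p adjusted over all tested genes (Benjamini-Hochberg) was under 0.05. The genes that fell were SDF2L1, CALR, PDIA4, PDIA3, PDIA6, HSPA5 and XBP1, and their levels with 22d were between 30.6% and 70.8% of those with DMSO. HSP90B1, CANX and HERPUD1 did not pass. Of all genes tested, 29.6% were called lower and 28.5% higher, 58% in either direction. The 10 genes had a median log2 fold change of -0.66, beside 0.01 over all genes tested. The groups did not overlap for 8 of the 10 genes, 7 of them lower, while 65.4% of all tested genes had groups that did not overlap and 33.3% did so with 22d lower. When tested genes were cut into 5 equal groups by mean count, 9 of the 10 genes lay in the highest, which began at 1850 normalized counts, and there 50.1% of genes were called lower, with a median log2 fold change of -0.28. The count of 7 is thus closer to the background of genes at a like level than to that of all genes, and nothing particular to these genes is read from it. The count of genes called higher was also 0 at an unadjusted p under 0.05, with edgeR and with DESeq2. In bulk RNA, fewer cells of a type and less RNA per cell cannot be told apart.

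**Figure D1:**
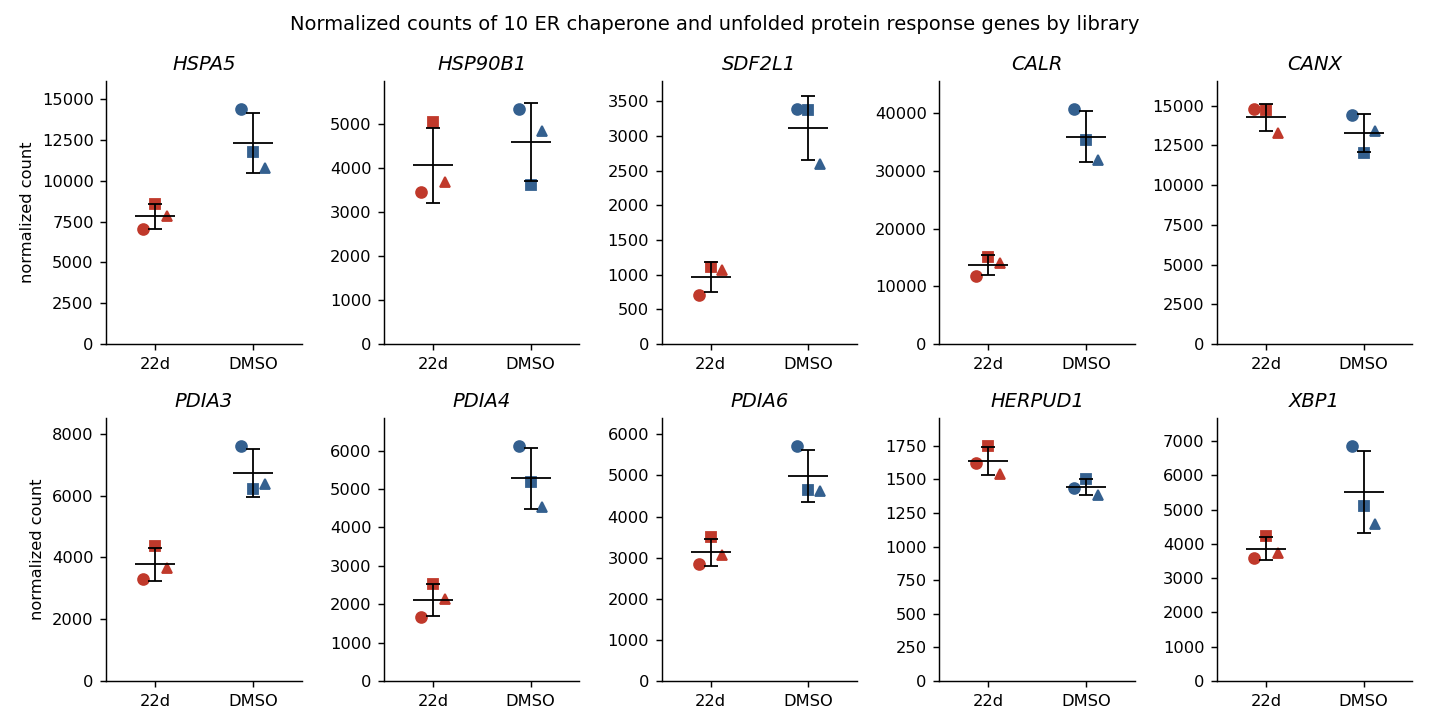
Normalized counts per library of the 10 genes, 22d left and DMSO right in each panel; circles, squares and triangles are replicates 1, 2 and 3, and bars give the mean and SD (n = 3 each). The 22d libraries lie below the DMSO libraries for the 7 genes called lower, with no overlap, whereas the groups overlap for HSP90B1 and CANX.

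The lectin chaperones of the ER split. CALR encodes calreticulin, the soluble calcium-binding lectin of the ER lumen (chromosome 19, 12938578 to 12944489, GENCODE 29 on GRCh38). It held 11813, 15164 and 14133 normalized counts in the 22d libraries, against 40652, 35251 and 31836 in the DMSO libraries. All 22d values lay below all DMSO values, and the highest with 22d was under the lowest with DMSO by a wide margin. The log2 fold change was -1.39 (SE 0.13, limma adjusted p = 1.5e-06), a level 38.1% of that with DMSO, and 4.78% of all tested genes had a value as low or lower. CANX encodes calnexin, the membrane-bound lectin that binds the same class of glycoproteins (chromosome 5, 179678628 to 179730925). It held 14767, 14715 and 13270 normalized counts with 22d and 14379, 12023 and 13419 with DMSO. The groups overlapped, and the log2 fold change of 0.10 (95% interval -0.12 to 0.33, limma adjusted p = 0.42) did not pass. Both genes have an ERSE match in the promoter sequences.

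HSPA5 encodes BiP, the ER member of the HSP70 family and the chaperone that keeps the stress sensors inactive (chromosome 9, 125234853 to 125241330). It held 7047, 8573 and 7864 normalized counts with 22d, against 14377, 11790 and 10784 with DMSO. The groups did not overlap. Its mean was 7828 ± 764 in 22d libraries, against 12317 ± 1854 in DMSO libraries (SD, n = 3 each), and the log2 fold change was -0.65 (SE 0.12, limma adjusted p = 5.9e-04). HSP90B1 encodes GRP94, the ER member of the HSP90 family (chromosome 12, 103930107 to 103953645). It held 3469, 5050 and 3680 normalized counts with 22d and 5340, 3616 and 4852 with DMSO. Replicate 2 of 22d was high and replicate 2 of DMSO was low, so the groups overlapped, and the log2 fold change was -0.18 (95% interval -0.53 to 0.17, limma adjusted p = 0.36). SDF2L1 encodes a stress-induced ER protein that works with BiP and its DNAJ partners (chromosome 22, 21642261 to 21644298). Its counts were 714, 1109 and 1068 with 22d, against 3382, 3370 and 2587 with DMSO. This was the most negative change among the 10 genes, at -1.71 on the log2 scale with an SE of 0.16 (limma adjusted p = 2.5e-06), and 2.62% of tested genes had a value as low or lower. Replicate 1 of 22d was the lowest library, and without it the log2 fold change was -1.5.

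The disulfide isomerases fell together, by unequal amounts. PDIA4 (ERp72; chromosome 7, 149003062 to 149028641) held 1675, 2523 and 2133 normalized counts with 22d, against 6125, 5186 and 4544 with DMSO. Its log2 fold change was -1.33 (SE 0.15, limma adjusted p = 8.6e-06). PDIA3 (ERp57), the isomerase that works with calnexin and calreticulin (chromosome 15, 43746392 to 43773279), held 3310, 4370 and 3658 normalized counts with 22d, against 7611, 6213 and 6380 with DMSO. Its log2 fold change was -0.84 (SE 0.12, limma adjusted p = 8.2e-05). PDIA6 (P5), which also acts on the sensor IRE1 (chromosome 2, 10783391 to 10837977), held 2843, 3491 and 3056 normalized counts with 22d, against 5718, 4645 and 4613 with DMSO. Its log2 fold change was -0.67 (SE 0.12, limma adjusted p = 3.3e-04). In all 3 genes the groups were separate, with 22d replicate 2 the highest 22d library and DMSO replicate 1 the highest DMSO library. Reads of PDIA3 can be shared with its pseudogene PDIA3P1, which averaged 43.6 ± 2.86 normalized counts in 22d libraries and 34.3 ± 4.15 in DMSO libraries (SD, n = 3 each). Its log2 fold change of 0.34 did not pass (limma adjusted p = 0.25). HSP90B1, PDIA3, PDIA6, CALR and CANX also overlap genes on the opposite strand, CALR over 370 bases of an antisense gene whose counts were not analysed here. Of those with counts, C12orf73, beside HSP90B1, was the most abundant, with a mean of 134 normalized counts in 22d libraries and 137 in DMSO libraries.

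XBP1 encodes the transcription factor of the IRE1 branch (chromosome 22, 28794555 to 28800597). It held 3594, 4232 and 3737 normalized counts with 22d, against 6855, 5100 and 4585 with DMSO. The groups did not overlap, but the highest 22d and the lowest DMSO library were close, and the log2 fold change was -0.50 (SE 0.14, limma adjusted p = 0.0077). DMSO replicate 1 carried part of it: without that library the value was -0.33 (adjusted p = 0.049). HERPUD1 encodes a membrane protein of ER-associated degradation whose gene is a known target of the stress response (chromosome 16, 56932048 to 56944863). It held 1625, 1749 and 1537 normalized counts with 22d, against 1438, 1500 and 1381 with DMSO. All 22d libraries lay above all DMSO libraries, yet the change did not pass (log2 fold change 0.18, 95% interval -0.04 to 0.41, limma adjusted p = 0.15). SDF2L1 and HERPUD1, the pair with an ERSE-II match, stood at opposite ends of the 10 changes.

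**Figure D2:**
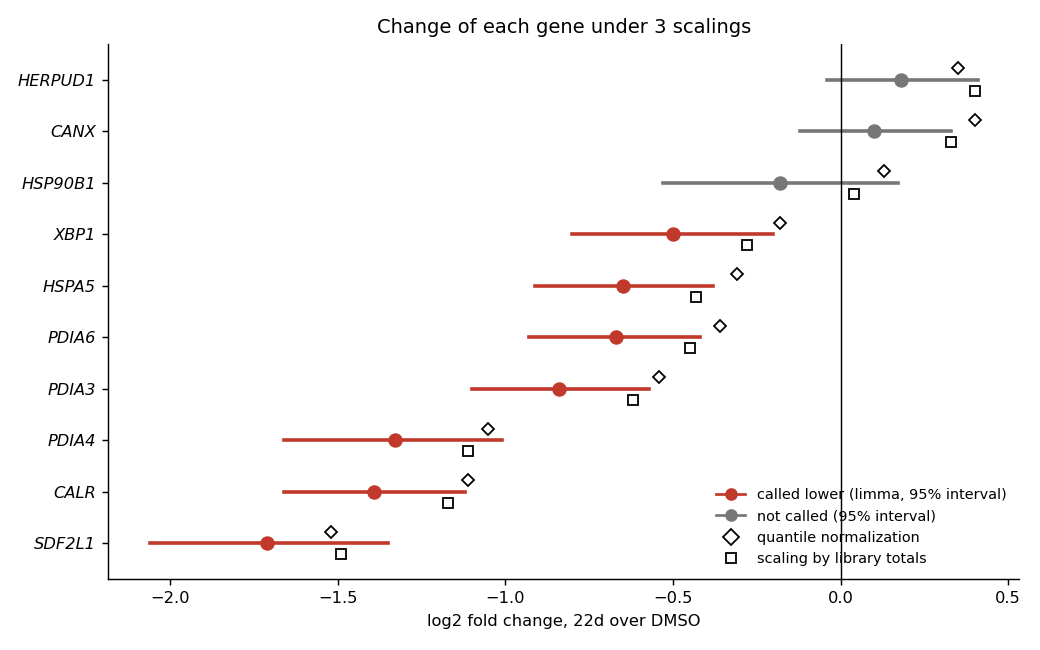
Log2 fold change of each gene, 22d over DMSO, with its 95% interval in the deposited scaling (circles and lines), and the same value after quantile normalization (diamonds) and after scaling by library totals (squares). SDF2L1, CALR and PDIA4 stay below -1 in all 3, while HERPUD1 and CANX stay above 0 and HSP90B1 changes sign without passing.

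The scaling of the libraries bears on the genes with small changes. When libraries were scaled by their read totals, the median of all genes tested moved to 0.22 on the log2 scale, and the changes given here are relative to the deposited scaling, where that median was 0.01. Under library totals 6 of the 10 genes were called lower and 2 higher, against backgrounds of 20.8% lower and 39.7% higher. Under quantile normalization the counts were again 6 and 2, against 27.4% and 29.7%. In both settings the gene lost was XBP1 (log2 fold change -0.28 and -0.18) and the genes gained as higher were CANX (0.33 and 0.40) and HERPUD1 (0.40 and 0.35), in each pair library totals first. HSP90B1 was at 0.04 and 0.13, not called in either. The other 6 genes were called lower in both.

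Ratios between genes within a library do not depend on the factor by which that library is scaled; quantile normalization, which shifts genes unequally, does change them. Relative to HSPA5 in the same library, CALR had log2 ratios of 0.75, 0.82 and 0.85 with 22d, against 1.5, 1.58 and 1.56 with DMSO. PDIA4 and SDF2L1 were also lower relative to HSPA5 with 22d, by log2 differences of -0.69 and -1.06. CANX had log2 ratios to HSPA5 of 1.07, 0.78 and 0.75 with 22d, against 0.00, 0.03 and 0.32 with DMSO, a difference of 0.75. HERPUD1 (difference 0.83) and HSP90B1 (0.47) were higher relative to HSPA5 with 22d as well. For these 6 ratios the groups did not overlap. HSPA5, the shared denominator, itself fell by 0.65 on the log2 scale with separate groups. A gene without change would therefore also stand higher relative to HSPA5 with 22d. Of single tested genes 65.4% had groups that did not overlap, and the like share over all ratios was not computed. XBP1 over HSPA5 had log2 ratios of -0.97, -1.02 and -1.07 with 22d and -1.07, -1.21 and -1.23 with DMSO, and the groups met. Exact two-sided permutation tests gave p = 0.10 for each separated ratio, the smallest value that 3 against 3 libraries allow, and p = 0.20 for XBP1; adjusted over the 9 ratios tested these were 0.11 and 0.20, so no ratio could pass 0.05 in this design.

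**Figure D3:**
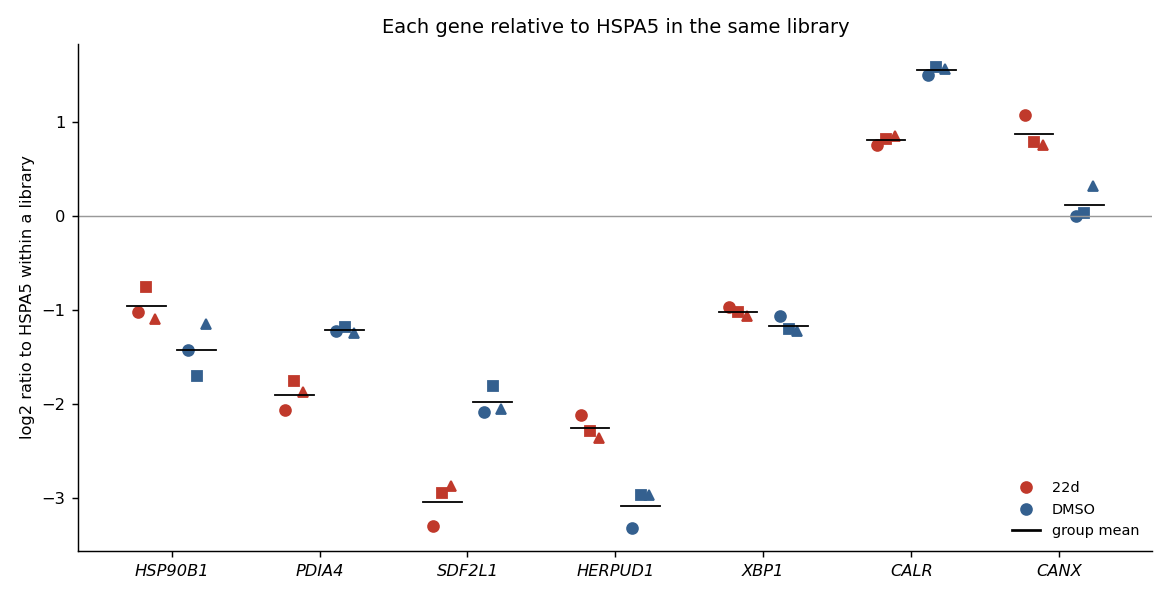
Log2 ratio of the normalized counts of 7 genes to those of HSPA5 in the same library, 22d left and DMSO right at each gene; symbols are replicates 1 to 3 and lines are group means. CALR, PDIA4 and SDF2L1 lie lower and CANX, HERPUD1 and HSP90B1 higher with 22d, and the 2 groups meet for XBP1.

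Per length, CALR led the genes in both groups. Divided by exon length in GENCODE 29, CALR averaged 5049 ± 632 normalized counts per kilobase in 22d libraries and 13230 ± 1640 in DMSO libraries (SD, n = 3 each). In DMSO libraries HSPA5 (3152 per kilobase) and SDF2L1 (2832) came next, with ranges that overlapped, and then CANX (2129), XBP1 (1821), PDIA4 (1613) and PDIA3 (1588), a run below SDF2L1 in which each overlapped the next. PDIA6 (1217) and HSP90B1 (980) followed and overlapped, and HERPUD1 was the lowest at 279. In 22d libraries CANX (2286) and HSPA5 (2003) stood after CALR and overlapped. XBP1 (1273) came after them, and PDIA3 (891), SDF2L1 (877), HSP90B1 (866), PDIA6 (763) and PDIA4 (644) formed a run in which each overlapped the next. HERPUD1 was again lowest, at 318. These levels depend on the annotated exons, which need not be those counted in the deposited table.

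Together the 10 genes held 0.259%, 0.306% and 0.272% of the reads in the 22d libraries, against 0.454%, 0.367% and 0.387% in the DMSO libraries. CALR made up between 23.2% and 26.1% of their summed normalized counts with 22d and between 37.5% and 39.7% with DMSO. Without CALR the sums were 39042, 45812 and 40004 normalized counts with 22d, against 65226, 53442 and 53145 with DMSO, still separate.

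Within groups, certain libraries stood at the edge. For all 7 genes called lower, 22d replicate 1 was the lowest 22d library and DMSO replicate 1 the highest DMSO library. Among all 3934 genes called lower, 22d replicate 1 was the lowest in 64.3% and DMSO replicate 1 the highest in 40.7%. With any 1 library left out, all 7 genes stayed called lower and none was called higher. The 6 libraries held between 19995430 and 23749257 reads in genes, and the 10 genes held between 730 (SDF2L1 in 22d replicate 1) and 35723 (CALR in DMSO replicate 1) reads per library. Genes fixed as markers of the myeloid lineage differed in level. FLT3, CD33, SPI1, CEBPA, LYZ and CD4 each averaged more than 1850 normalized counts in both groups. The monocytic marker CD14 averaged 2.62 normalized counts with 22d and 8.28 with DMSO and was not tested. ITGAM averaged 134.5 with 22d and 77.0 with DMSO, and ITGAX 416 with 22d and 84.0 with DMSO. Of the markers of other lineages, CD3D, MS4A1, PPBP, PF4 and COL1A2 were at 0 in every library. MPO, a granule protein, averaged 65.6 ± 12.4 normalized counts in 22d libraries and 400.01 ± 78.3 in DMSO libraries, and lysozyme (LYZ) 16624 ± 5232 in 22d libraries and 44816 ± 10120 in DMSO libraries (SD, n = 3 each). Of the 12 myeloid markers 11 were tested, of which 5 rose (45.5%, beside 28.5% of all tested genes) and 2 fell (18.2%, beside 29.6%). Those that rose were ITGAX (log2 fold change 2.30), PTPRC (1.63), ITGAM (0.80), CSF1R (0.78) and FLT3 (0.42). The summed counts of the 12 myeloid markers were 59722 to 71787 with 22d and 86171 to 106855 with DMSO. Without LYZ they were 48315 to 53106 with 22d and 46626 to 56601 with DMSO, which overlap. Of 16 markers of other lineages 4 were tested, of which 2 rose and 0 fell. The sums of the 16 were 610 to 726 with 22d and 340 to 471 with DMSO, mostly PECAM1. The part of these markers in the changes of the chaperones was not tested. HDAC8 averaged 314.8 ± 28.6 normalized counts in 22d libraries and 302.5 ± 12.3 in DMSO libraries.

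**Figure D4:**
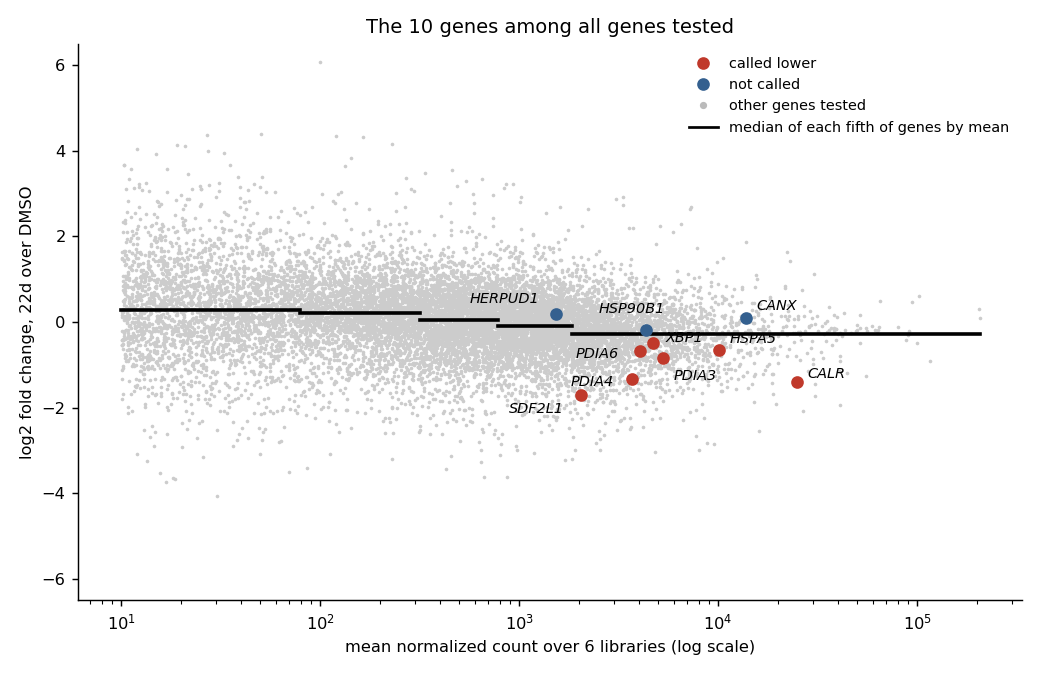
Mean normalized count over 6 libraries (log scale) against log2 fold change, 22d over DMSO, for all 13297 genes tested (grey) and the 10 genes (red where called lower, blue where not); black lines are the medians of 5 equal groups of genes by mean. The median is 0.29 in the lowest group and -0.28 in the highest, where 9 of the 10 genes lie.

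Sequence features varied with the changes among the 10 genes. The genes that did not fall have longer exons in sum (HSP90B1 4695, HERPUD1 5155 and CANX 6235 bases), and SDF2L1 (1099) and CALR (2714) have the shortest. Across the 10 genes the Spearman correlation of exon length with log2 fold change was 0.82, and with GC content of the longest transcript it was -0.66; these genes share libraries and are not independent. Across all tested genes with an annotated length, 94.0% of them, the correlation with exon length was 0.16, and the median log2 fold change was -0.18 in the shortest of 5 equal groups and 0.20 in the longest. Set against the median of their own group by exon length, SDF2L1 was lower by a log2 difference of -1.53, PDIA4 by -1.24, CALR by -1.21, PDIA3 by -0.82, PDIA6 by -0.58, HSPA5 by -0.56 and XBP1 by -0.41. HSP90B1 (-0.16), CANX (0.04) and HERPUD1 (0.20) lay nearer to theirs. The part of transcript length and GC content in the changes was not tested.

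Of the 6 genes with an exact ERSE match, 4 fell and HSP90B1 and CANX did not pass. Among them only HSP90B1 has 2 exact matches, and spellings with mismatches were not searched. Outside the 10 genes, 11 tested genes had an ERSE, of which 1 was called lower and 4 higher, beside 30.9% lower and 27.8% higher among all tested genes with a window. These, apart from ERO1B, were named after their values were seen: the ER protein gene CRELD2 (log2 fold change -0.86) and, higher, the oxidase gene ERO1B (1.21), EIF2A (0.94), TRIM5 (0.65) and NLRP4 (3.14). CRELD2 shares its element with the oppositely placed ALG12 (-0.19, not called), and EIF2A shares its own with SERP1 (-0.07, not called). Outside the 10 genes, 11 tested genes had an ERSE-II, of which 7 were called lower and 0 higher, with a median log2 fold change of -0.64. Among them HYOU1, the gene of an ER chaperone that assists BiP, was at -0.88, and RUVBL2 (-1.58) and GYS1 (-0.92) share a single element. A match describes letters in a window and says nothing of binding.

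The other ER folding genes moved both ways. Nothing particular to a list is read from the counts that follow. In the highest of the 5 equal groups of tested genes by mean count, 50.1% were called lower and 16.8% higher. The shares of all tested genes given beside each list do not allow for this difference by level. Of 34 tested chaperones, cochaperones and disulfide enzymes outside the 10 genes, 17 fell (50%) and 8 rose (23.5%), beside 29.6% and 28.5% of all tested genes. Their median log2 fold change was -0.30, beside 0.01 over all genes tested. In the same deposited scaling, the number that rose was 5 without 22d replicate 2 and 4 without DMSO replicate 2. Under library totals 11 fell and 10 rose, where 20.8% of all tested genes were lower and 39.7% higher. PRDX4, the ER peroxiredoxin that takes electrons from disulfide isomerases, averaged 435 ± 109 normalized counts in 22d libraries and 1388 ± 117 in DMSO libraries (SD, n = 3 each), and its log2 fold change was -1.70 (limma adjusted p = 3.0e-06). PDIA5 fell by 1.10 on the log2 scale, RCN1, a calcium-binding protein of the ER lumen, by 0.94 and HYOU1 by 0.88. Against this direction, ERO1B, an oxidase that recharges disulfide isomerases, rose by 1.21, and DNAJC1, a DNAJ partner of BiP, rose by 1.04. Both were low, and ERO1B averaged 91.5 normalized counts in 22d libraries, against 38.8 in DMSO libraries.

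Of 18 tested genes of N-glycan transfer and the calnexin cycle, 11 fell (61.1%, beside 29.6% of all tested genes) and 1 rose (5.56%, beside 28.5%), with a median log2 fold change of -0.45. Under quantile normalization 9 fell and 4 rose, beside 27.4% and 29.7% of all tested genes, and under library totals 8 fell and 4 rose, beside 20.8% and 39.7%. DAD1, a subunit of the oligosaccharyltransferase, fell by 0.75 on the log2 scale, the lectin gene MLEC by 0.73, DPAGT1, the enzyme that starts the glycan precursor, by 0.71 and GANAB, a subunit of glucosidase II that trims glycans for calnexin, by 0.64. MAN1B1, an ER mannosidase, rose by 0.33 (limma adjusted p = 0.022), and was not called without 22d replicate 1, 22d replicate 3, DMSO replicate 1 or DMSO replicate 3 (adjusted p between 0.053 and 0.10). Genes of the translocon, the signal recognition particle and the signal peptidase numbered 13 lower (50%) and 2 higher (7.69%) of 26, beside 29.6% and 28.5% of all tested genes, a split that turned under quantile normalization (6 lower, 8 higher) and library totals (7 lower, 9 higher), where 27.4% and 20.8% of all tested genes were lower and 29.7% and 39.7% higher. SRPRB and SRPR, which encode the receptor of the signal recognition particle, had log2 fold changes of -0.65 and -0.61, SSR4 of -0.62 and SEC61B of -0.58, whereas SEC61A2 rose by 0.50 and TRAM1 by 0.33, a call lost without DMSO replicate 1 or 2 (adjusted p = 0.053 and 0.061).

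**Figure D5:**
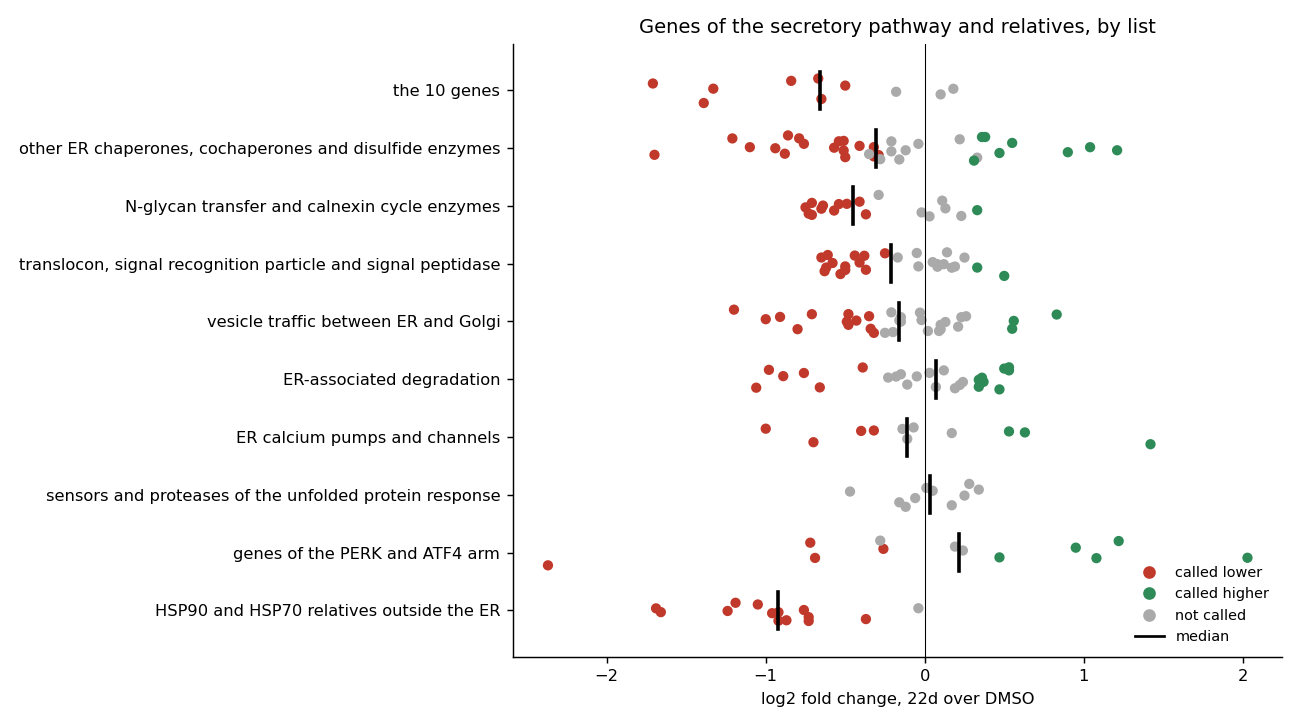
Log2 fold change, 22d over DMSO, of each tested gene by list, red where called lower, green where called higher and grey where not called; black bars are list medians. The 10 genes have a median of -0.66, and the HSP90 and HSP70 relatives outside the ER -0.92, while the medians of the sensors and of ER-associated degradation are near 0.

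For vesicle traffic between ER and Golgi, 12 of 31 tested genes fell (38.7%, beside 29.6% of all tested genes and 50.1% of those with the highest counts) and 3 rose (9.68%, beside 28.5%), and under quantile normalization 7 fell and 7 rose, beside 27.4% and 29.7%. PREB, the exchange factor that starts COPII coats, fell by 1.20 on the log2 scale, TMED9 by 1.00, the cargo receptor gene SURF4 by 0.91 and the coat gene SEC13 by 0.71, while MIA3, which helps large cargo leave, rose by 0.83 and COPB1 by 0.56. In ER-associated degradation 8 of 25 tested genes rose (32.0%) and 6 fell (24.0%), near the 28.5% and 29.6% of all tested genes, with 13 higher and 5 lower under library totals, where 39.7% of all tested genes were higher. Genes that rose, named after their values were seen, included NGLY1 and HERPUD2 (log2 fold change 0.53 each), UBXN4 (0.50), SEL1L (0.47), ERLEC1 (0.36), EDEM2 (0.34) and UBXN6 (0.34). The 4 called genes with the smallest p fell. VCP, the ATPase that pulls proteins from the membrane, had a log2 fold change of -1.06, its cofactor gene UFD1L -0.89, the channel gene DERL3 -0.98 and the conjugating enzyme gene UBE2J2 -0.66. Of 11 genes listed under ER calcium pumps and channels, not all of them ER pumps or channels, 4 fell (36.4%) and 3 rose (27.3%). The shares of all tested genes were 29.6% and 28.5%, and 2 of the 11 were lower under quantile normalization and library totals. The pump gene ATP2A2 fell by 0.70 and the IP3 receptor gene ITPR3 by 1.00. The IP3 receptor genes ITPR2 and ITPR1 rose by 1.42 and 0.53, and STIM2, a calcium sensor, by 0.63.

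The genes of the stress sensors were not called. Of 10 sensor and protease genes, 0 passed limma, 1 (CREB3L2) had an unadjusted p under 0.05, and edgeR called 1 and DESeq2 0. ERN1 averaged 636 normalized counts with 22d and 540 with DMSO (log2 fold change 0.25, 95% interval -0.06 to 0.55, limma adjusted p = 0.15). ATF6 was at 0.01 (95% interval -0.23 to 0.26), and EIF2AK3 at 0.34 (-0.04 to 0.72, limma adjusted p = 0.12). EIF2AK3 passed without DMSO replicate 1 (0.49, adjusted p = 0.039), and ERN1, EIF2AK3 and CREB3L2 were called higher under library totals. Under quantile normalization CREB3L2 was called higher (0.45) and WFS1 lower (-0.75), and CREB3L2 was also called higher under TMM scaling (0.31) and by edgeR (0.31). In the PERK and ATF4 arm 5 of 12 genes rose (41.7%, beside 28.5% of all tested genes) and 4 fell (33.3%, beside 29.6%). DDIT4 rose by 2.03 on the log2 scale and PPP1R15A, which restores translation after stress, by 1.08, while CHAC1, a glutathione-degrading enzyme gene and known ATF4 target, fell by 2.37 and EIF2S1, which encodes the translation factor subunit that PERK phosphorylates, by 0.72. DDIT3, which encodes CHOP and was named after its values were seen, held 534, 306 and 280 normalized counts with 22d, against 149, 131 and 183 with DMSO (log2 fold change 1.22, limma adjusted p = 4.5e-04). ATF4, TRIB3 and ATF3, also named after their values were seen, had log2 fold changes of 0.19 (not called), -0.69 (lower) and 0.95 (higher).

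Relatives of HSPA5 and HSP90B1 in the cytosol and mitochondria and their cochaperones were listed together with HSF1, the transcription factor of the heat shock response. Of 14 tested, 13 fell (92.9%, beside 29.6% of all tested genes) and 0 rose; the gene not called was HSF1, named after its values were seen (log2 fold change -0.04). The median log2 fold change was -0.92, and 0 were higher at an unadjusted p under 0.05, with edgeR and with DESeq2. HSPA8, the constitutive cytosolic HSP70, fell by 1.69 on the log2 scale, and HSPA5 over HSPA8 had log2 ratios of -0.60, 0.01 and 0.09 with 22d, against -1.38, -1.09 and -1.15 with DMSO. HSP90AB1 fell by 0.73, and HSP90B1 over HSP90AB1 averaged -2.38 ± 0.31 in 22d libraries and -2.93 ± 0.21 in DMSO libraries on the log2 scale (SD, n = 3 each). In both ratios the ER gene stood higher relative to its cytosolic relative with 22d, without overlap (exact permutation p = 0.10 each, the smallest possible). TRAP1 and HSPA9, the mitochondrial relatives, fell by 1.19 and 0.92. HSPA1A (-1.66) and HSPA1B (-1.24) are near-identical copies whose reads may be split between them.

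Genes outside these lists whose pattern over the 6 libraries was most like the median of the 10 genes, by Euclidean distance of log2 values centred on the DMSO mean, were ARHGDIB (distance 0.09), MDN1 (0.11), PYGL (0.14), C2CD3 (0.15) and C11orf31 (0.16), out of 9932 candidates. For HSPA5 alone the nearest were ARHGDIB (0.13), MDN1 (0.16), CYB561D2 (0.17), C11orf31 (0.18) and C2CD3 (0.19). Their log2 fold changes lay between -0.70 and -0.64.

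In the authors' deposited table the log2 fold changes of the 10 genes were close to those given here, from -1.66 (SE 0.16) for SDF2L1 and -1.37 (SE 0.13) for CALR to 0.18 (SE 0.12) for HERPUD1. There, in the authors' deposited table, an adjusted p under 0.05 was given for 7 of the 10 genes, all lower.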

How the data were processed

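The submitters' processing notes list hg38 as the build and name STAR, HTSeq, DESeq2, cutadapt and FastQC; no version, annotation or strand setting was stated in the sources used here, so overlapping genes on opposite strands cannot be separated. The columns deposited by the authors, per the file headers, are a normalized signal for each library with its mean, a log2 fold change with its SE, a test score, a p-value and an adjusted p-value. Each signal is a read count over a size factor of the library: on dividing it out, 100% of values were whole to within 0.001. Columns were matched to libraries by treatment and number.

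Values were tested as log2(value + 1) with limma-trend on genes with a mean of at least 10, two-sided, with Benjamini-Hochberg adjustment over all 13297 genes, called under 0.05. Fold changes are on that scale. Alternatives were pseudocounts, filters, scalings, edgeR and DESeq2 on recovered reads, a replicate block and leaving out each library. R 4.3.3, limma 3.58.1, edgeR 4.0.16, DESeq2 1.42.0, Python 3.11.15 and GENCODE 29 were used. From each list, up to 4 called genes with the smallest p and up to 2 moving most against the list's direction are named, plus ERN1, ATF6, EIF2AK3 and HDAC8, and the 5 genes outside the lists, with a mean of at least 100, nearest in profile. The other sensor genes, the lineage markers and genes marked so in the text were named outside this rule, after their values were seen. The members and lists were chosen with earlier results of these data known.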

Additional observations from a re-analysis of the deposited data

How the results depend on the processing

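Over 17 alternatives, 162 of 170 values of the 10 genes kept their direction and their side of the threshold; the exceptions were XBP1, CANX, HERPUD1 and HSP90B1 under quantile normalization and library totals, given with the results, where HSP90B1 turned to 0.13 and 0.04 and the genes called higher numbered 2. The number called lower was 6 in those settings and 7 in every other, and with 1 library left out it was 7 each time. Values with 1 library left out lay between -1.84 and -1.50 for SDF2L1, -1.47 and -1.29 for CALR, -0.74 and -0.53 for HSPA5 and -0.62 and -0.33 for XBP1. Of the sensor genes, none called, ATF6 turned to -0.03 without 22d replicate 1 and -0.05 without DMSO replicate 2 (up to 0.05 without the others), CREB3 to -0.02 and -0.05 without DMSO replicates 1 and 3 (up to 0.23), ATF6B to 0.19 and MBTPS1 to 0.14 under quantile normalization, and ATF6B, MBTPS1 and CREB3L4 to 0.10, 0.16 and 0.06 under library totals. With a replicate block the members called lower were again 7. Same-numbered libraries correlated at -0.025, -0.018 and -0.102 in their deviations, and libraries of unlike number between -0.112 and 0.174. With so few libraries, these values cannot tell whether the numbers pair the libraries. On recovered reads edgeR called 3961 genes higher and 3762 lower, beside 3784 and 3934 with limma. All genes called numbered between 3260 and 3592 higher and between 3422 and 3836 lower with 1 library left out. Library totals raised the share of calls that were higher to 65.6%, against 49.0% in the deposited scaling. The cause of these shifts was not tested.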
